A study of Mus musculus with 18 samples.

Results

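The genes described here are 32 members of the heat shock and unfolded protein responses, of 23284 gene symbols in the mouse tables and 25410 in the human ones. The rule names each gene and uses no measured value, but the list was drawn up with earlier results of these data known. The list holds 13 cytosolic and mitochondrial chaperone genes with their regulators, 13 genes of the endoplasmic reticulum (ER) response and 6 genes of the ATF4 arm. All 32 were found in both kinds of table.

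RNA was sequenced in 18 libraries, 6 groups of 3. Mouse memory T helper 2 (Th2) cells, high in the IL-33 receptor ST2, were kept for 3 days in IL-2, to which IL-33 was or was not added. Eosinophils were kept for 3 days with no amphiregulin, an epidermal growth factor family ligand, or with it. Whole lung came from OVA-treated mice that were wild type or carried dGATA, which the labels call a knockout without spelling out the allele. All labels give the BALB/c strain, but the eosinophil tables list human genes and were read as human, and no source used here gives their genome build. House dust mite is the treatment in the design text, but the lung labels give OVA. Both Th2 groups received IL-2, and both lung groups OVA. Whether the libraries of a group are separate donors, mice or cultures is not labelled, and p-values therefore cover the spread between these samples, which may be technical.

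Cells answer misfolded proteins in separate compartments. In the cytosol, the factor HSF1 switches on chaperones of the Hsp70, Hsp90, Hsp110 and J-domain families. In the ER, the sensors IRE1, PERK and ATF6 act through spliced Xbp1, through translation of Atf4 and through cleaved ATF6, and raise lumenal chaperones, disulfide isomerases and the machinery that clears misfolded glycoproteins. Secreting lymphocytes are known to widen the ER, and Xbp1 is required in plasma cells and for eosinophil development in mice. These tables measure total RNA of each gene, not splicing of Xbp1 or translation of Atf4.

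Values are FPKM, fragments scaled to transcript length and library size, which allow levels of different genes to be set side by side. Differences are on the log2(FPKM + 1) scale, which makes changes of genes near 1 FPKM look smaller than they are. They were tested with limma, and a gene is called higher or lower where its p, adjusted by Benjamini-Hochberg over all genes tested, is below 0.05. Relative depth ran from 0.67 to 1.34 in Th2 libraries, 0.36 to 1.0 in eosinophils and 0.58 to 1.0 in lung, and no source used here gives total depth. Small RNAs made up 12.08 to 21.36% of the summed FPKM in Th2 cells, 20.03 to 38.42% in eosinophils and 4.0 to 5.12% in lung. T cell markers in Th2 libraries summed to 1121 to 1293 FPKM with IL-2 and 1946 to 2071 FPKM with IL-33. The eosinophil genes Epx and Prg2, the macrophage gene C1qa and the epithelial genes Sftpc and Scgb1a1 were listed at 0 there. Other genes of those lists were present. Mean FPKM with IL-2 and with IL-33 was 1.18 and 6.95 for Ccr3 and 6.36 and 5.65 for Cd68. It was 3.37 and 1.78 for Apoe and 6.16 and 3.22 for Epcam. With IL-33, Ccr3 was called higher, Apoe and Epcam lower, and Cd68 was not called. Eosinophil libraries held 121 to 247 FPKM of eosinophil markers, and 6741 to 20436 FPKM of neutrophil markers, mostly S100A8 and S100A9. In bulk samples, fewer cells of a type and less RNA per cell cannot be told apart.

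**Figure D1:**
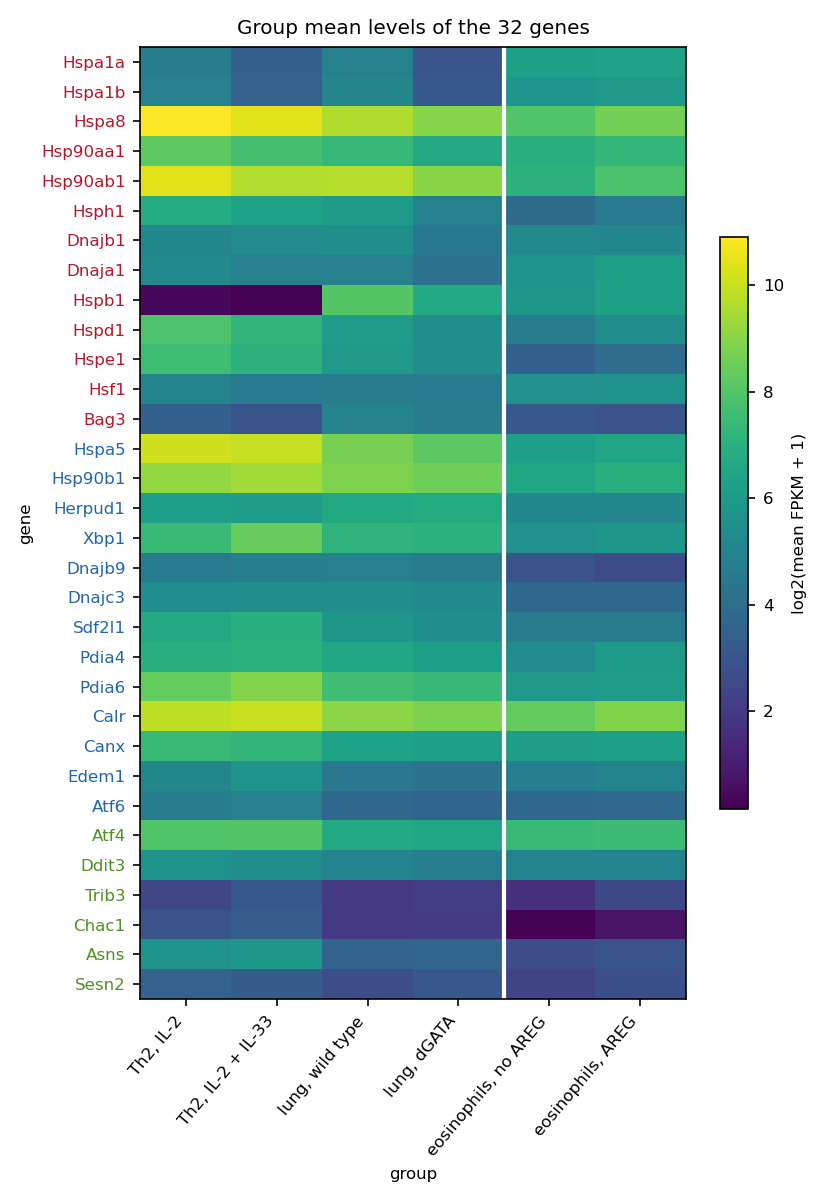
Mean level of each of the 32 genes (rows) in the 6 groups (columns), as log2(mean FPKM + 1). Row labels are red for cytosolic and mitochondrial, blue for ER and green for ATF4 arm genes, and the white line parts mouse from human tables. Hspa8, Hsp90ab1, Hspa5 and Calr are the brightest rows in Th2 cells, and Hspb1 is dark there and bright in lung.

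The first comparison asked how the stress-response genes of memory Th2 cells differed after 3 days with IL-33. Cytosolic and mitochondrial chaperones fell: 9 of 12 tested members were called lower and 1, Dnajb1, higher. ER genes did not share that direction, with 3 of 13 called higher, Xbp1, Pdia6 and Edem1, and 0 lower. Of the ATF4 arm, 0 of 6 were called. Over all 10296 genes tested, 16.3% were called higher and 25.7% lower, so 4 higher and 9 lower of 31 tested members stand against a background where calls were frequent. Hspb1 was under the expression filter and had no test in the fit.

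The median difference was -0.51 on the log2 scale for cytosolic members, 0.15 for ER members and 0.15 for the ATF4 arm, against -0.11 for all genes tested. Median-of-ratios scaling moved the median of all genes to -0.01, and those of the classes to -0.41, 0.26 and 0.25. Under that scaling 5 members were called higher and 5 lower, in place of 4 and 9, and over all genes 2105 were called higher and 1992 lower, in place of 1680 and 2651. Unscaled, 10 of the 12 cytosolic and 1 of the 13 ER members lay lower without overlap, against 35% of all genes tested. Higher without overlap lay 1 and 5, against 21.7%. Under median-of-ratios scaling 7 and 0 lay lower without overlap, against 2880 of 10296 genes, and under common-sum scaling 8 and 0, against 2552. With small RNA features removed and values rescaled, 10 and 0 did so, against 3687 of 10223. In the same order, 1 and 6, 1 and 6, and 1 and 3 lay higher without overlap, against 2792, 2698 and 2175 genes. Of the 12 tested cytosolic members, 11 lay below 0 under each of the 4 scalings tried, against 51.4 to 60.7% of all genes. Other values differed between the same groups: small RNAs made up 20.15 to 21.36% of the summed FPKM with IL-2 and 12.08 to 18.15% with IL-33, and 5 of 6 T cell markers were called higher. The plasma cell list, mostly the factor Irf4 in these cells, summed to 340 to 381 FPKM with IL-2 and 243 to 281 FPKM with IL-33. Its genes did not move together. Irf4 was called lower, from a mean of 330 to 204 FPKM, and Prdm1 higher, from 32.7 to 54.8 FPKM. Their part in the members' differences was not tested.

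Hspa8, the constitutive Hsp70, was the most abundant cytosolic member. It stood at 1993, 2005 and 1726 FPKM in the IL-2 libraries 1, 3 and 5, and at 1414, 1312 and 1337 FPKM in the IL-33 libraries 2, 4 and 6. The groups did not overlap, and the mean fell by 29.02%, from 1908 ± 157 to 1354 ± 53.3 FPKM (SD, n = 3 each). The log2 difference was -0.49 ± 0.12 (SE, limma adjusted p = 0.0153). This call was held in 3 of 6 fits that left out 1 library, with adjusted p up to 0.0687, and was lost with no expression filter (0.0654) and under median-of-ratios scaling (0.0633).

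Hsp90ab1 and Hsp90aa1 encode the cytosolic Hsp90 proteins, which mature kinases and steroid receptors. Hsp90ab1 stood at 1432, 1471 and 1160 FPKM with IL-2 and at 762, 870 and 817 FPKM with IL-33. Its mean fell by 39.7%, with a log2 difference of -0.72 ± 0.13 (SE, limma adjusted p = 0.00537). Hsp90aa1 stood at 319, 320 and 264 FPKM with IL-2 and at 216, 194 and 218 FPKM with IL-33, a log2 difference of -0.52 ± 0.11 (SE, limma adjusted p = 0.00972). In both genes each IL-33 library lay below each IL-2 library, and both calls held in 6 of 6 fits that left out 1 library. In the fit over 12 mouse libraries the Hsp90aa1 call was lost (limma adjusted p = 0.0533). Hsph1, an Hsp110 that exchanges nucleotide on Hsp70, fell from 113 ± 8.01 to 83.5 ± 4.35 FPKM (SD, n = 3 each, limma adjusted p = 0.00851). Its call held in 6 of 6 fits that left out 1 library and was lost in the fit over 12 mouse libraries (limma adjusted p = 0.107).

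Hspd1 and Hspe1 encode the mitochondrial chaperonin and its lid, and lie head to head on mouse chromosome 1. They are shown because they share 1 promoter stretch, which holds overlapping heat shock elements, searched as GAA, TTC, GAA or TTC, GAA, TTC with 2 bases between, on both strands. Capitals mark the matched letters, from RefSeq promoter windows of GRCm38.p6 (250 bases before to 50 after each start). Both lines are chr1:55088044-55088091, on the minus strand for Hspd1 and on the plus strand for Hspe1.
Hspd1: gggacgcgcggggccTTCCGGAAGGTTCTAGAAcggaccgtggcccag
Hspe1: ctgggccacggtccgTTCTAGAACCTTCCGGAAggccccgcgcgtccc
The matched stretch covers positions -144 to -127 from the Hspd1 start and -89 to -72 from the Hspe1 start. Such an element was found in 0.662% of all 27025 gene symbols with a window, and in 3 of 9 cytosolic members with a window, the other being Hsph1. A match describes letters only, and no match says only that these letters are not in the window.

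Hspd1 stood at 246, 242 and 248 FPKM in the IL-2 libraries and at 140, 134 and 174 FPKM in the IL-33 libraries. The groups were far apart relative to their spread, and the mean fell by 39.2% (log2 difference -0.72 ± 0.11 SE, limma adjusted p = 0.00305). Hspe1 stood at 195, 210 and 158 FPKM with IL-2 and at 145, 123 and 126 FPKM with IL-33, a fall of 30.04% (log2 difference -0.51 ± 0.13 SE, limma adjusted p = 0.0191). Of the pair, Hspd1 was called in 6 of 6 fits that left out 1 library and Hspe1 in 3, and the Hspe1 call was lost under median-of-ratios scaling (limma adjusted p = 0.0654).

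Hspa1a and Hspa1b, the stress-induced Hsp70 genes, are near-identical copies, so the division of reads between them is uncertain. Hspa1b stood at 32.5, 36.6 and 13.3 FPKM in IL-2 libraries 1, 3 and 5 and at 12.01, 12.8 and 7.57 FPKM in IL-33 libraries 2, 4 and 6. Library 5 stood apart from libraries 1 and 3, near the IL-33 values. Hspa1b was called lower (log2 difference -1.18 ± 0.38 SE, limma adjusted p = 0.0410), and Hspa1a, at 24.9 ± 11.8 and 9.99 ± 2.45 FPKM (SD, n = 3 each), missed the threshold (-1.13, limma adjusted p = 0.0507). Summed, the pair stood at 52.4 ± 24.2 FPKM with IL-2 and 20.8 ± 5.24 FPKM with IL-33 (SD, n = 3 each). The sum, an alternative chosen after seeing the data, was called lower with a log2 difference of -1.19 (limma adjusted p = 0.0448). The Hspa1b call was held in 1 of 6 fits that left out 1 library, and was lost with no filter (limma adjusted p = 0.0888), common-sum scaling (0.0555) and median-of-ratios scaling (0.0678).

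Among the co-chaperones, Dnaja1, a J-domain partner of Hsp70, fell from 38.8 ± 4.76 to 27.3 ± 2.43 FPKM (SD, n = 3 each, limma adjusted p = 0.0147). Its call was held in 3 of 6 fits that left out 1 library, with adjusted p up to 0.0564, and was lost under median-of-ratios scaling (0.0569). Bag3, which links Hsp70 to selective autophagy, fell from 10.4 ± 1.44 to 6.82 ± 0.531 FPKM (SD, n = 3 each, limma adjusted p = 0.01001). Dnajb1, the J-domain protein that partners the inducible Hsp70, went the other way. Its values were 33.6, 33.1 and 33.4 FPKM with IL-2 and 38.2, 44.0 and 38.3 FPKM with IL-33, a small rise without overlap (log2 difference 0.26 ± 0.08 SE, limma adjusted p = 0.0416), called in 1 of 6 fits that left out 1 library and lost with small RNA features removed and values rescaled (0.0577). Hsf1, the master regulator itself, stood at 30.8 ± 5.18 and 23.1 ± 2.39 FPKM (SD, n = 3 each) and just missed the threshold (limma adjusted p = 0.0501). Hspb1, a small heat shock protein, was barely present, at 0.318 ± 0.00520 and 0.160 ± 0.0143 FPKM (SD, n = 3 each). For it an exact permutation test gave p = 0.1, the smallest that 3 against 3 allows.

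**Figure D2:**
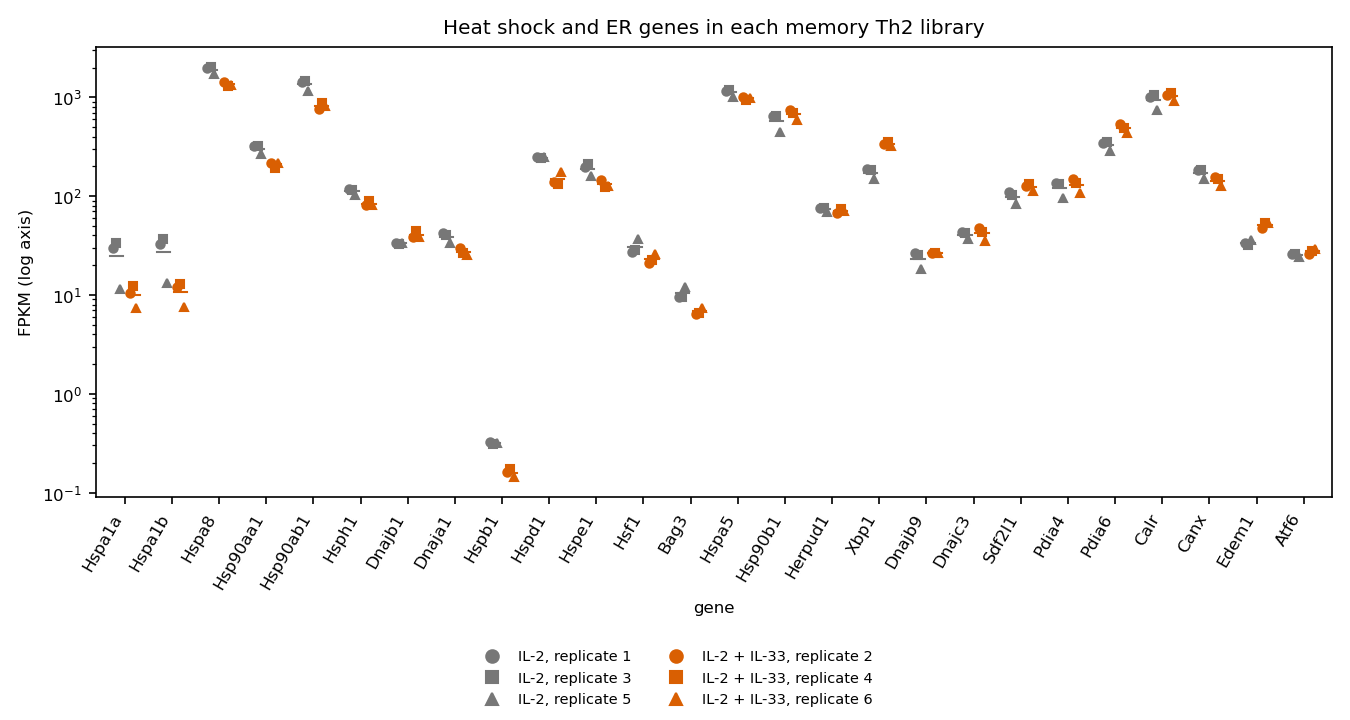
FPKM (log axis) of the 26 cytosolic, mitochondrial and ER genes in each Th2 library, grey for IL-2 alone and orange for IL-2 plus IL-33, with symbols for libraries and short lines for group means. Hspa1a and Hspa1b are high in IL-2 libraries 1 and 3 and lower in library 5, and Xbp1 lies higher in all 3 IL-33 libraries than in all 3 IL-2 libraries.

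In the ER group, Xbp1, the transcription factor downstream of IRE1, changed most. It stood at 187, 182 and 148 FPKM with IL-2 and at 334, 352 and 319 FPKM with IL-33. The mean rose 1.94-fold (log2 difference 0.96 ± 0.11 SE, limma adjusted p = 0.000944). Edem1, which draws misfolded glycoproteins out of folding cycles for degradation, stood at 33.5, 31.8 and 35.7 FPKM with IL-2 and 47.8, 53.1 and 53.5 FPKM with IL-33 (1.53-fold higher, limma adjusted p = 0.00196). Pdia6, a protein disulfide isomerase, stood at 343, 351 and 285 FPKM against 533, 488 and 435 FPKM (1.49-fold higher, limma adjusted p = 0.0108). None of the 3 genes overlapped between groups, and each call held in 6 of 6 fits that left out 1 library.

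The large lumenal chaperones were not called. Hspa5, the ER Hsp70 known as BiP, stood at 1124 ± 91.4 FPKM with IL-2 and 980 ± 41.8 with IL-33, a log2 difference of -0.19 with a 95% interval from -0.45 to 0.07. Hsp90b1, the ER Hsp90, stood at 578 ± 112 and 674 ± 78.3 FPKM, a difference of 0.24 with an interval from -0.17 to 0.64. Calr and Canx, the lectin chaperones of the glycoprotein cycle, differed by 0.15 and -0.26, with intervals of -0.22 to 0.53 and -0.54 to 0.03. Sdf2l1, a partner of BiP, stood at 98.4 ± 13.8 and 124 ± 9.47 FPKM without overlap (SD, n = 3 each) but missed the threshold (limma adjusted p = 0.0609), which it passed under median-of-ratios scaling (0.0459) and common-sum scaling (0.0357). Herpud1, Dnajb9, Dnajc3, Pdia4 and Atf6, which serve ER degradation, BiP cycling, disulfide exchange and sensing, had log2 differences between -0.06 and 0.20.

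Promoter letters of the ER genes are shown beside these values because these elements are known binding sites of the ATF6 and XBP1 factors. The ER stress element was searched as CCAAT and CCACG with 9 bases between, on both strands. It was found in 0.137% of all gene symbols with a window and in 6 of 12 ER members with a window. Capitals mark the element in each line. The lines are chr2:34772010-34772058 (plus strand) for Hspa5, chr12:17266476-17266524 (plus) for Pdia6, chr14:118937812-118937860 (plus) for Dnajc3, chr8:84847060-84847108 (minus) for Calr and chr11:50325785-50325833 (minus) for Canx, all GRCm38.p6.
Hspa5: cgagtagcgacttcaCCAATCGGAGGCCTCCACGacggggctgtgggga
Pdia6: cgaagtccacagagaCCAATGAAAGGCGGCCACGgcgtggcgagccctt
Dnajc3: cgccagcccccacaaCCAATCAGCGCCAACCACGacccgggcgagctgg
Calr: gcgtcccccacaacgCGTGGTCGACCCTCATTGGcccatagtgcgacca
Canx: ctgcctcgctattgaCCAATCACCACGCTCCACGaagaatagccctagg
Hsp90b1 held 2 such elements between positions -212 and -89. Of the 6 members with the element, Pdia6 was called higher with IL-33 and the other 5 were not called. Xbp1 and Edem1, also called higher, had windows without these letters. A further form, ATTGG, 1 base and CCACG, was found in 0.044% of gene symbols with a window. Herpud1 (chr8:94386362-94386402, plus strand), which was not called, held it.
Herpud1: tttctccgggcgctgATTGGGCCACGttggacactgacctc

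In the ATF4 arm, Atf4 itself stood at 253 ± 13.8 FPKM with IL-2 and 262 ± 9.53 with IL-33 (SD, n = 3 each), a log2 difference of 0.05 with an interval from -0.15 to 0.25. Ddit3, which encodes the pro-apoptotic factor CHOP, stood at 50.01, 60.2 and 36.8 FPKM against 49.2, 44.3 and 31.4 FPKM. Libraries 5 and 6, the shallowest of each group, were the lowest of their groups in Ddit3, Trib3, Chac1 and Asns. Trib3, a pseudokinase that dampens the arm, stood at 5.63, 5.98 and 2.06 FPKM against 8.52, 9.24 and 5.21. Chac1, which breaks down glutathione, stood at 8.11, 8.09 and 4.35 FPKM against 10.4, 11 and 7.49. Asns, asparagine synthetase, stood at 52.8, 57.3 and 37.8 FPKM against 64.0, 59.6 and 49.9. The groups overlapped in each of these genes. Sesn2, which restrains mTORC1, stood at 10.6 ± 1.38 and 9.08 ± 2.63 FPKM (SD, n = 3 each). The amino acid response element bound by ATF4 (TGATGNAA, both strands) was found in 4.511% of gene symbols with a window. It was found in 3 of 6 members of the arm, Trib3, Chac1 and Asns, and in 1 of 12 ER members, Herpud1. The Trib3 match, which ends at or after the start, is not shown. Chac1 and Asns are shown with the element in capitals, from chr2:119351034-119351071 (plus strand) and chr6:7693210-7693247 (minus strand).
Chac1: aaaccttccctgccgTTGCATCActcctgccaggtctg
Asns: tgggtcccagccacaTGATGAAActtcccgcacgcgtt

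The summed FPKM of the 13 ER members stood at 0.887, 0.885 and 0.830 times that of the 13 cytosolic members in IL-2 libraries 1, 3 and 5. In IL-33 libraries 2, 4 and 6 it stood at 1.501, 1.48 and 1.33 times. The ER members thus summed to more than the cytosolic members in each IL-33 library, and to less in each IL-2 library. These sums rest on few genes. Hspa8 and Hsp90ab1 made up 75.2 to 76.7% of the cytosolic sum in Th2 libraries, and Hspa5 and Calr 47.7 to 55.9% of the ER sum. The cytosolic sum ran from 3801 to 4547 FPKM with IL-2 and from 2846 to 2877 FPKM with IL-33, and the ER sum from 3154 to 4025 and from 3823 to 4317 FPKM.

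Other genes of the same pathways, from lists chosen with earlier results of these data known, were counted beside the members. Of 29 further chaperone genes tested, mostly of the cytosol and mitochondria, 16 were called lower and 5 higher, against 25.7% lower and 16.3% higher of all genes. Trap1, the mitochondrial Hsp90, fell from 57.1 ± 3.54 to 31.1 ± 3.45 FPKM (SD, n = 3 each, limma adjusted p = 0.000950), and Hspbp1, a nucleotide exchange factor of Hsp70, from 45.9 ± 4.59 to 27.2 ± 1.57 FPKM (limma adjusted p = 0.00151). One of the 5 higher, the co-chaperone Bag2, passed the expression filter through the IL-33 libraries alone, and had to be high there to be tested. It stood at 0.453 ± 0.0806 and 1.59 ± 0.1402 FPKM (SD, n = 3 each). The subunits of the cytosolic chaperonin Cct2, Cct3, Cct4, Cct5, Cct6a, Cct7 and Cct8, named after their values were seen, were called lower, with log2 differences from -0.52 to -0.35. The remaining subunit of that list, Tcp1, was not called, at 190 ± 7.62 and 166 ± 12.04 FPKM (SD, n = 3 each, limma adjusted p = 0.117).

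Of 36 further ER folding and degradation genes, 10 were called higher and 4 lower, against the same 16.3% and 25.7% of all genes. Ero1l, the oxidase that recharges disulfide isomerases, rose from 144 ± 35.4 to 365 ± 29.7 FPKM (SD, n = 3 each, limma adjusted p = 0.00192). Ppib, an ER prolyl isomerase, rose from 339 ± 25.9 to 649 ± 93.9 FPKM (limma adjusted p = 0.00223), and Eif2ak3, the sensor PERK, from 5.98 ± 0.169 to 10.4 ± 0.878 FPKM (limma adjusted p = 0.00134). Of 33 further integrated stress response genes, 8 were called higher and 12 lower, and 1 of the 8, Pycr1, passed the filter through the IL-33 libraries alone. Atf3, a stress-induced factor, fell from 85.4 ± 11.8 to 17.8 ± 1.59 FPKM (limma adjusted p = 3.76e-05), while Gpt2, an alanine aminotransferase, rose from 2.07 ± 0.567 to 8.93 ± 1.51 FPKM (limma adjusted p = 0.000611) and Cth, of the transsulfuration pathway, from 1.38 ± 0.104 to 3.86 ± 0.781 FPKM (limma adjusted p = 0.00144).

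The 7 immediate early genes listed, which are known to respond to handling of cells, summed to 549 to 616 FPKM with IL-2 and 528 to 621 with IL-33, so the groups overlapped, and 2 of the 6 tested were called higher. Their part in the chaperone differences was not tested. In fits that left out 1 library the count of members called lower ran from 5 to 10. The count of 5 arose without IL-2 library 1, IL-2 library 3 or IL-33 library 4. Limma with array weights called 7 members higher and 14 lower. Leaving out the shallow libraries 5 and 6 together, an alternative chosen after seeing the data, gave 7 higher and 13 lower. The shares of all genes called in these alternative fits are not given here, so the counts are not read as results about the members.

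The second comparison asked whether amphiregulin changed the same genes in eosinophils. None of the members could be called: 0 of 31 tested were higher and 0 lower by limma, and 0 had an unadjusted p below 0.05 in that fit. Over all 12617 genes tested, 0.0317% were called higher and 0.174% lower, which is 4 and 22 genes, 3 and 22 of them with every library of 1 group under 1 FPKM, or 3 and 0 with small RNA features removed and values rescaled. With the replicate number as a block 0 members were called either way (lowest limma adjusted p = 0.203). Of all genes, 0.531% were called higher and 0.587% lower with that block. There 5 members had an unadjusted p below 0.05, all higher with amphiregulin. The share of all genes at that unadjusted p is not given here, so the count is not read as a result about the members. CHAC1 was under the expression filter, at 0.0842, 0.302 and 0 FPKM without amphiregulin and 0.933, 1.07 and 0 with it (exact permutation p = 0.4). The groups overlapped in all 32 genes. Limma with array weights, an estimate that did not converge and gave 1 library a weight of 19.2, called 16 members higher and 0 lower. The share of all genes called in that weighted fit is not given here, so the count is not read as a result about the members.

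The spread within groups was wide and sat on the library numbers. Libraries numbered 4 were below the other 4 libraries in 22 of 32 members, a pattern found in 34.2% of all genes tested, and they had the lowest relative depth of their groups, 0.44 and 0.36. HSPD1 stood at 25.9, 40.6 and 9.17 FPKM in libraries 2, 3 and 4 without amphiregulin and at 52.5, 60.6 and 12.04 with it. HSP90AB1 stood at 167, 158 and 76.5 FPKM without and at 275, 330 and 82.1 with. Both genes lay low in both libraries numbered 4 and higher with amphiregulin within each number, yet the groups overlapped.

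Within equal numbers, 10 of 32 members lay higher with amphiregulin in 3 of 3 pairs, against 17.6% of all genes tested, and 1, BAG3, lay lower in 3 of 3. The 10 were HSPA8, HSP90AA1, HSP90AB1, HSPH1, DNAJA1, HSPB1, HSPD1, XBP1, PDIA4 and CALR. That libraries of equal number are pairs is not labelled. HSPA8 stood at 280, 324 and 164 FPKM without amphiregulin and 484, 546 and 176 with it. For it the log2 difference of 0.55 had a 95% interval from -0.69 to 1.78, and from 0.03 to 1.06 with the replicate block (limma adjusted p = 0.406). DNAJA1 stood at 57.0, 62.2 and 35.2 FPKM against 82.9, 90.5 and 54.5, with a difference of 0.56 and an interval from -0.20 to 1.32, and from 0.19 to 0.93 with the block (limma adjusted p = 0.203). The block thus narrowed these intervals, which cover each gene alone, and no member passed the adjustment over all genes.

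Among stress-induced genes, HSPA1A stood at 77.1, 57.4 and 90.8 FPKM without amphiregulin and 84.6, 81.2 and 79.4 with it. The near-identical pair HSPA1A and HSPA1B together stood at 131 ± 28.1 and 143 ± 5.61 FPKM (SD, n = 3 each). DNAJB1 stood at 37.5 ± 5.23 and 34.7 ± 5.23 FPKM, and HSF1 at 47.3 ± 11.8 and 49.4 ± 6.26 FPKM. HSF1 and ATF4 were highest in the libraries numbered 4, while DNAJB1 had its lowest value in the amphiregulin library of that number. The log2 difference of DNAJB1, -0.11, had an interval from -0.64 to 0.42, and from -0.53 to 0.31 with the block. HSPE1, the partner of HSPD1, stood at 11.4, 13.9 and 5.55 FPKM against 21.1, 20.3 and 3.56.

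In the ER group, HSPA5 stood at 69.6, 111 and 41.8 FPKM without amphiregulin and 109, 125 and 39.5 with it. CALR, the most abundant ER member, stood at 403, 377 and 176 FPKM against 562, 642 and 185. XBP1 stood at 39.4, 71.0 and 30.3 FPKM against 55.5, 72.3 and 42.8, a difference of 0.33 with an interval from -0.55 to 1.21, and from -0.09 to 0.75 with the block. In HSPA5 and CALR both libraries numbered 4 were the lowest, in XBP1 both numbered 3 were the highest, and the groups overlapped in all 3 genes. The remaining ER members, HSP90B1, HERPUD1, DNAJB9, DNAJC3, SDF2L1, PDIA4, PDIA6, CANX, EDEM1 and ATF6, had log2 differences from -0.23 to 0.59, none with an adjusted p below 0.999.

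In the ATF4 arm, ATF4 stood at 173, 122 and 220 FPKM without amphiregulin and 178, 168 and 211 with it. DDIT3 was nearly level, at 31.5 ± 3.38 and 31.5 ± 4.08 FPKM (SD, n = 3 each), a log2 difference of -0.0034 with an interval from -0.50 to 0.49, and from -0.41 to 0.41 with the block. TRIB3 stood at 2.84, 2.54 and 0.822 FPKM against 7.09, 6.02 and 0.753. ASNS stood at 5.59 ± 3.25 and 6.89 ± 4.33 FPKM, and SESN2 at 4.15 ± 0.837 and 5.89 ± 1.08 FPKM.

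**Figure D3:**
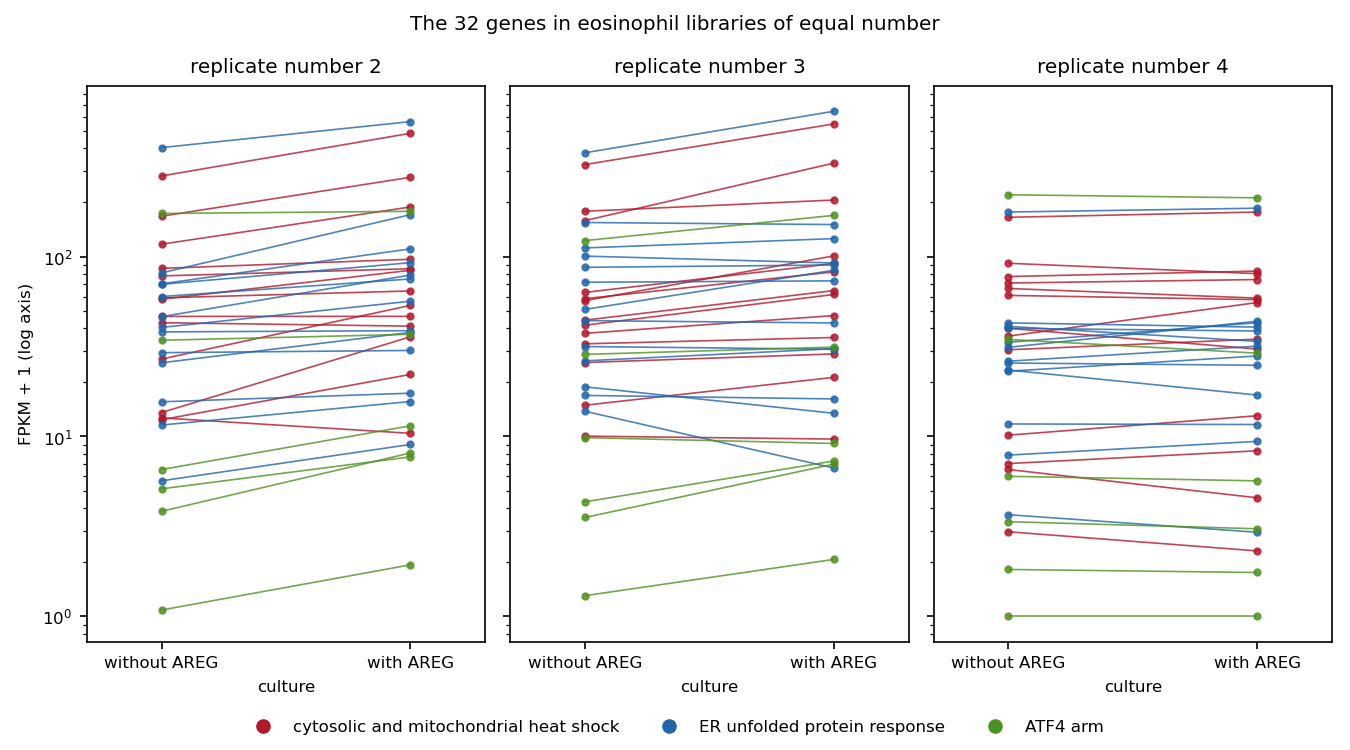
FPKM + 1 (log axis) of the 32 genes in eosinophil libraries without and with amphiregulin (AREG), 1 panel for each library number, with lines joining the same gene. Most lines lie lower in the panel of number 4 than in the others, and 10 genes slope upward in all 3 panels.

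Common-sum scaling moved the median difference of all genes from 0.02 to 0.21 and that of cytosolic members from 0.32 to 0.53, so about the same distance between them remained. Further genes of the pathways gave no call: 0 of 29 chaperone genes, 0 of 36 ER and 0 of 31 integrated stress response genes. Markers of other cells differed between libraries as well. Macrophage markers summed to 325 to 2418 FPKM without and 185 to 1044 FPKM with amphiregulin, neutrophil markers to 8067 to 20436 and 6741 to 13687 FPKM. T cell markers summed to 178 to 401 FPKM without and 98.2 to 224 with it, dendritic cell markers to 2.38 to 35.8 and 13.8 to 148, and plasma cell markers to 13.1 to 17.6 and 29.5 to 47.4. Their part in the members' values was not tested.

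The dGATA comparison asked how the same genes stood in OVA-treated dGATA lung against wild-type lung. The 13 cytosolic and mitochondrial members lay lower in every dGATA library than in every wild-type library, and 1 of the 13, Dnajb1, passed the test over all genes. Of 13 ER members 4 lay lower without overlap and 0 were called, and of the ATF4 arm 0 lay lower without overlap. Among all 13727 genes tested, 9.86% lay lower without overlap, 0.0437% were called higher and 0.051% lower, the last being 7 genes, 5 of which had every dGATA library under 1 FPKM. All 32 members passed the expression filter. With small RNA features removed and values rescaled, 3 genes were called higher and 7 lower, in place of 6 and 7.

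Dnajb1 stood at 49.4, 42.6 and 44.2 FPKM in wild-type libraries 1, 2 and 3 and at 20.9, 21.9 and 23.5 FPKM in dGATA libraries 1, 2 and 3. Both groups were tight and far apart, and the mean fell by 51.3%, from 45.4 ± 3.51 to 22.1 ± 1.27 FPKM (SD, n = 3 each). The log2 difference was -1.01 ± 0.09 (SE, limma adjusted p = 0.0271). The call was lost in each of the 6 fits that left out 1 library, with adjusted p from 0.0718 to 0.337. Array weights, which did not converge for the lung, called 17 members lower and 1 higher. The share of all genes called with these weights is not given here, so the counts are not read as results about the members.

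The largest differences were those of the inducible Hsp70 genes, with wide spread. Hspa1b stood at 39.1, 34.8 and 23.6 FPKM in wild-type lung and 4.37, 9.45 and 9.12 FPKM in dGATA lung. Hspa1a stood at 35.5, 28.4 and 21.03 FPKM against 4.18, 8.84 and 8.34. Every dGATA value lay under every wild-type value, by -1.99 on the log2 scale for Hspa1b (limma adjusted p = 0.233) and -1.88 for Hspa1a (0.247), with dGATA library 1 lowest in both. The pair together stood at 60.8 ± 15.1 and 14.8 ± 5.40 FPKM (SD, n = 3 each), and tested as 1 gene it gave a limma adjusted p of 0.254.

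Hspb1, the small heat shock protein, stood at 246, 318 and 240 FPKM in wild-type lung and 112, 64.5 and 142 FPKM in dGATA lung (log2 difference -1.39, limma adjusted p = 0.413). Hsph1 stood at 59.7, 85.8 and 48.0 FPKM against 27.2, 23.7 and 33.9 (log2 difference -1.14, limma adjusted p = 0.395). In both, wild-type library 2 was the highest and dGATA library 2 the lowest, and neither passed the threshold. Hsp90aa1 showed that order as well, at 147, 199 and 127 FPKM against 111, 75.3 and 110. Hsp90ab1 stood at 846 ± 90.5 and 503 ± 63.9 FPKM, and Hspa8 at 790 ± 53.2 and 492 ± 84.0 FPKM (SD, n = 3 each).

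Hspd1 stood at 64.0, 74.1 and 58.6 FPKM in wild-type lung and 48.9, 39.9 and 46.7 in dGATA lung, and Hspe1 at 61.3, 66.3 and 52.9 against 39.5, 44.0 and 44.0. For the chaperonin pair Hspd1 and Hspe1 the log2 differences were -0.53 and -0.49 here and -0.72 and -0.51 in Th2 cells. With amphiregulin in eosinophils they were 0.64 and 0.28, neither called. Any part of the shared promoter stretch in these values was not tested. Dnaja1 stood at 27.8 ± 2.62 and 17.2 ± 3.71 FPKM (SD, n = 3 each). Bag3 stood at 30.02 ± 1.99 and 24.3 ± 0.187 FPKM, and Hsf1 at 25.1 ± 0.359 and 22.4 ± 1.80 FPKM (SD, n = 3 each), the smallest differences of the 13. Dnajb1, called lower here, was called higher with IL-33 in Th2 cells, and the difference between those comparisons was not tested.

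**Figure D4:**
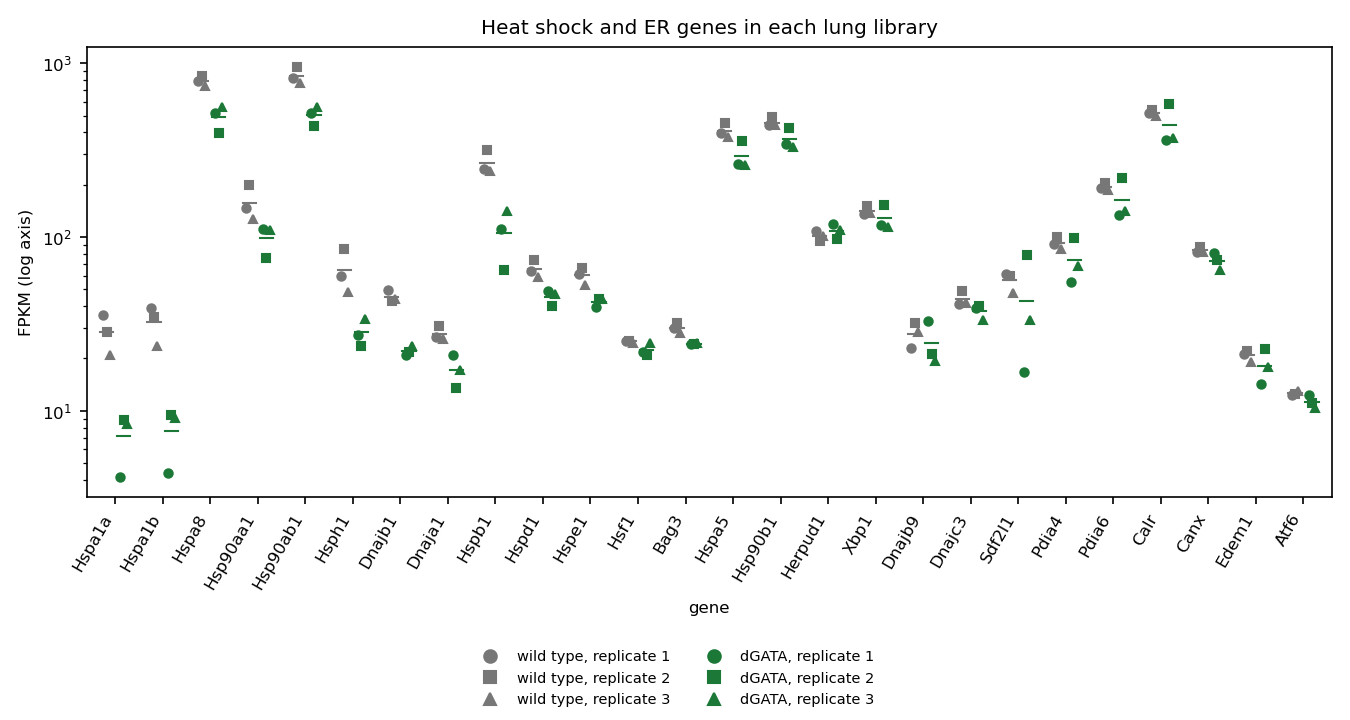
FPKM (log axis) of the 26 cytosolic, mitochondrial and ER genes in each lung library, grey for wild type and green for dGATA, with symbols for libraries and short lines for group means. All 13 genes from Hspa1a to Bag3 lie lower in the 3 dGATA libraries without overlap, and Sdf2l1 spans the widest range among dGATA libraries.

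The median difference was -0.70 on the log2 scale for the 13 cytosolic members, -0.21 for ER members and 0.06 for the ATF4 arm, against -0.03 for all genes tested. All 13 cytosolic members lay lower without overlap under each of the 4 scalings tried. Of all 13727 genes tested, 1353 did so unscaled, 2623 with common-sum scaling and 855 with median-of-ratios scaling. With small RNA features removed and values rescaled, 2559 of 13640 did so. Common-sum scaling moved the median of all genes to -0.13 and that of the ATF4 arm to -0.04, so the arm's median changed sign. One fit over the 12 mouse libraries, which shares its estimate of spread with the Th2 cells, called 5 members lower: Dnajb1, Hspa1b, Hsp90ab1, Hsph1 and Hspb1. The share of all genes called in that fit is not given here, so this count is not read as a result about the members.

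In the ER group, Hspa5 stood at 394, 456 and 377 FPKM in wild-type lung and 263, 355 and 261 in dGATA lung, and Hsp90b1 at 438, 488 and 440 FPKM against 342, 425 and 328. These 2 genes, Dnajc3 (43.8 ± 4.31 and 37.6 ± 3.58 FPKM) and Canx (83.7 ± 3.12 and 73.1 ± 7.99 FPKM) were the 4 without overlap (SD, n = 3 each), with limma adjusted p from 0.647 to 0.765. Under median-of-ratios scaling 1 of 13 ER members lay lower without overlap, against 855 of all 13727 genes tested. Herpud1 was the 1 ER member with a higher mean in dGATA lung, at 101 ± 6.64 and 109 ± 11.3 FPKM.

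Several ER members were highest in dGATA library 2 of their group. Sdf2l1 stood at 61.6, 59.5 and 47.7 FPKM in wild-type lung and at 16.8, 78.4 and 33.2 FPKM in dGATA lung. Calr stood at 520, 537 and 497 FPKM against 362, 585 and 372, and Pdia6 at 190, 204 and 186 against 133, 218 and 140. In each of these genes dGATA library 2 exceeded all wild-type libraries while libraries 1 and 3 lay under them. Pdia4 stood at 90.9, 100.4 and 85.6 FPKM against 55.5, 99.3 and 68.0, Xbp1 at 136, 151 and 138 against 117, 153 and 115, and Edem1 at 21.3, 22.02 and 19.2 against 14.2, 22.6 and 17.8, with the same library on top. Dnajb9, Atf6, Canx and Herpud1 had their highest dGATA value in library 1, at 33.01, 12.4, 80.4 and 119 FPKM.

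The ER sum was 0.885, 0.841 and 0.935 times the cytosolic sum in wild-type libraries 1, 2 and 3, and 1.08, 1.85 and 0.983 times in dGATA libraries 1, 2 and 3. The ratio was higher in each dGATA library, most of all in library 2. Markers of other cells differed between the same libraries. The 6 plasma cell markers summed to 168 to 238 FPKM in wild-type and 112 to 438 FPKM in dGATA lung, with 0 called. Igj, the joining chain of antibodies, stood at 116, 149 and 94.4 FPKM in wild-type and 22.6, 303 and 264 FPKM in dGATA libraries 1, 2 and 3, while Sdc1, at 51.8, 57.4 and 54.4 FPKM against 74.4, 71.0 and 68.5, was highest in dGATA library 1. The 8 macrophage markers summed to 1296 to 1502 FPKM in wild-type and 587 to 1905 FPKM in dGATA lung, with 0 called. The part of these cells in the ER values was not tested.

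Epithelial markers summed to 81949 to 93479 FPKM in wild-type and 98523 to 121444 FPKM in dGATA lung, with 6 of 6 above 0 on the log2 scale and 0 called. The eosinophil genes Ccr3 and Prg2, which passed the expression filter through wild-type lung alone, stood at 5.36 ± 0.733 and 9.699 ± 3.27 FPKM there and at 0.125 ± 0.111 and 0.428 ± 0.311 FPKM in dGATA lung (SD, n = 3 each). The eosinophil list summed to 18.5 to 27.8 FPKM in wild-type and 6.35 to 9.18 FPKM in dGATA lung. Immediate early genes summed to 261 to 300 FPKM and 227 to 288 FPKM, overlapping, with 0 called. Their part in the chaperone values was not tested.

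In the ATF4 arm, Atf4 stood at 105 ± 12.01 and 97.0 ± 1.93 FPKM (SD, n = 3 each) in wild-type and dGATA lung. Ddit3 stood at 31 ± 3.41 and 26.3 ± 2.37 FPKM, and Asns at 10.97 ± 0.920 and 11.7 ± 2.09 FPKM. Trib3 and Chac1, both with the ATF4 element in their promoter windows, were low. They stood at 2.85 ± 0.454 and 3.54 ± 0.920 FPKM and at 2.86 ± 0.160 and 3.09 ± 1.15 FPKM. Sesn2 was the 1 member that lay higher in all dGATA libraries, at 5.80, 5.16 and 5.54 FPKM against 6.72, 7.32 and 8.24, without passing the test (limma adjusted p = 0.546).

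Further pathway genes in lung gave 0 calls, in 32 further chaperone, 36 ER and 33 integrated stress response genes tested. Below 0 on the log2 scale lay 28 of the 32, 29 of the 36 and 13 of the 33, against 59.1% of all genes. Lower without overlap lay 15 of the 32, 3 of the 36 and 0 of the 33, against 9.86% of all genes, a share near that of the ER list. Among the 15, named after their values were seen, Stip1, which bridges Hsp70 and Hsp90, stood at 75.7 ± 12.8 and 42.8 ± 4.50 FPKM, and Serpinh1, a collagen chaperone that sits in the ER but was listed with the further chaperones, at 223 ± 22 and 133 ± 2.43 FPKM (SD, n = 3 each). The limma adjusted p was 0.358 for Stip1 and 0.175 for Serpinh1.

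**Figure D5:**
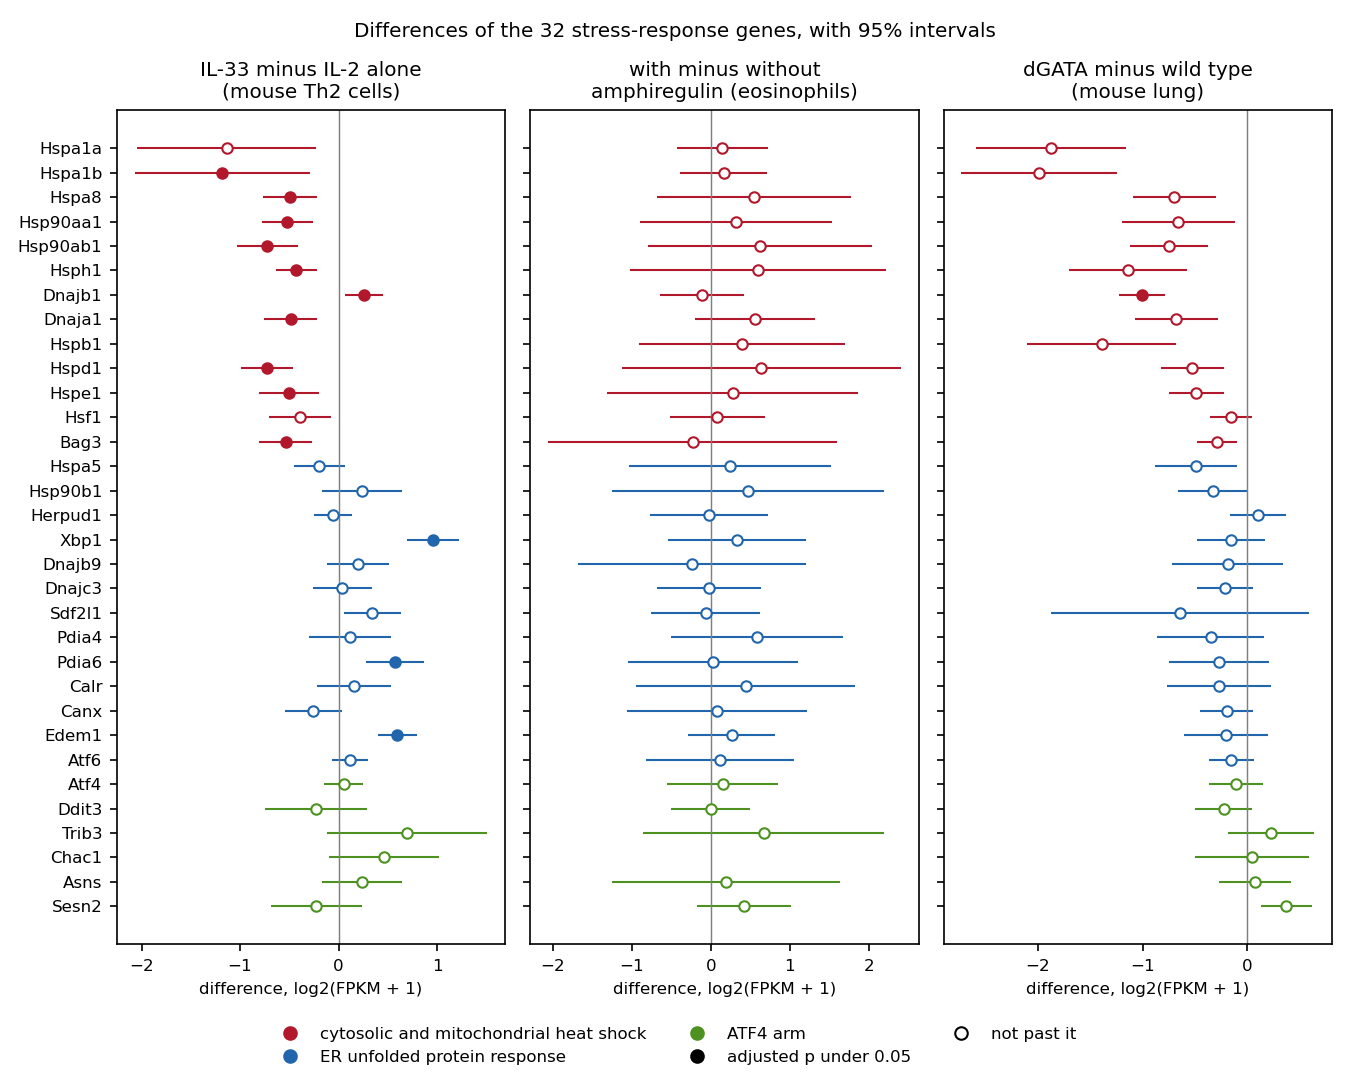
Difference of each of the 32 genes on the log2(FPKM + 1) scale (x axis) with its 95% interval, for IL-33 in Th2 cells, amphiregulin in eosinophils and dGATA in lung, coloured by class. Filled points have an adjusted p below 0.05, 13 in Th2 cells, 0 in eosinophils and 1 in lung. Hspb1 in Th2 cells and Chac1 in eosinophils have no point because they were under the filter.

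Last, IL-2 Th2 cells were set against wild-type lung to describe where the members are abundant. These groups also serve as the controls of the Th2 and lung comparisons, and cell type cannot be told apart from culture against tissue. Of 32 members, 21 were called higher in Th2 cells and 4 lower, against 34.7% higher and 52.9% lower of all 13692 genes tested. The count of 4 includes Hspb1, which passed the filter through lung alone, and of all genes 3477 of the 7242 called lower did so. By class, 7 of 13 cytosolic, 9 of 13 ER and 5 of 6 ATF4 arm members were higher.

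The 4 lower members were Hspb1, Bag3, Dnajb1 and Herpud1. Hspb1 stood at 268 ± 43.8 FPKM in lung and 0.318 ± 0.00520 FPKM in Th2 cells (SD, n = 3 each), given here as levels only. Bag3 stood at 30.02 ± 1.99 FPKM in lung and 10.4 ± 1.44 FPKM in Th2 cells (SD, n = 3 each), a log2 difference of -1.45. Dnajb1 and Herpud1 differed by -0.43 and -0.45. Serpinh1, Cryab and Hspb8 from the further chaperones also had mean levels under 1 FPKM in Th2 cells.

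Among the members higher in Th2 cells, Asns had the largest log2 difference, 2.05, from 10.97 ± 0.920 to 49.3 ± 10.2 FPKM (SD, n = 3 each). Hspd1 followed at 1.89 and Hspe1 at 1.62, then Hspa5 at 1.46, Hspa8 at 1.27 and Atf4 at 1.26. The leading genes thus came from all 3 classes. Hspa1a and Hspa1b, by contrast, were not called, at -0.28 and -0.33. Among other integrated stress response genes, Slc7a5, a large neutral amino acid transporter, stood at 2.93 ± 0.639 FPKM in lung and 119 ± 8.79 in Th2 cells, and Tars, a transfer RNA synthetase, at 16.8 ± 0.675 and 83.6 ± 0.904 FPKM (SD, n = 3 each), both called higher by limma. In sum 20 of 33 genes of that list were called higher and 10 lower, of 32 further chaperone genes 21 and 9, and of 36 further ER genes 18 and 13, against 34.7% and 52.9% of all genes. Of the lower ones, 1, 3 and 0 in these lists passed the filter through lung alone.

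Across the 4 mouse groups, 12 of 32 members had their highest mean in IL-2 Th2 cells, 12 in IL-33 Th2 cells, 7 in wild-type lung and 1 in dGATA lung. The lowest mean lay in dGATA lung for 24 of 32, 11 of 13 cytosolic and 11 of 13 ER members among them. The ATF4 arm differed, with its lowest mean in wild-type lung for 4 of 6 members. Of the cytosolic class, 8 of 13 peaked in IL-2 Th2 cells and 5 in wild-type lung. Of the ER class, 8 of 13 peaked in IL-33 Th2 cells. These orders are descriptions of means, with no share over all genes given, so they are not read as results about the members. The tests of neighbouring groups are those given above.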

How the data were processed

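RNA of 18 libraries (6 groups of 3, grouped by their labels) was extracted with TRIzol and made into stranded mRNA libraries, per the labels. The deposited values are FPKM by gene. The submitters' processing notes name Bowtie 0.12.8, TopHat 1.3.2, Cufflinks 2.0.2 and mm10. The files hold no read counts, so no count test was used. FPKM was summed per gene symbol. Genes with at least 1 FPKM in at least 3 of the 6 libraries of a comparison were transformed to log2(FPKM + 1) and tested with limma 3.58.1 (trend option) in R 4.3.3, with no further scaling, and p-values were adjusted over all of them. The code was tested on simulated data. A gene below the filter was compared by a two-sided exact permutation test.

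Members and gene lists were chosen with earlier results of these data known. All 32 members were named, and up to 3 genes of smallest p in each other pathway list with a call. Genes of the Y chromosome and of X inactivation were removed from the human tables. Promoter windows came from RefSeq (GRCm38.p6) for 27 of 32 members. After removing group means, same-numbered eosinophil libraries had correlations of 0.398, 0.356 and 0.669 for numbers 2, 3 and 4. Unlike numbers 2 and 3 correlated at 0.308 and 0.28, and number 4 with the others at -0.505 to -0.427. These values set number 4 apart but do not settle how 2 and 3 pair. Equal numbers were taken as pairs in the replicate block, and the main fit used no pairing. Alternatives were another pseudocount, filters, scalings, entries per symbol, array weights, left-out libraries, a replicate block and 1 fit over 12 mouse libraries.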

Additional observations from a re-analysis of the deposited data

How the results depend on the processing

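In Th2 cells, 4 members were called higher and 9 lower. Array weights gave 7 and 14, and median-of-ratios scaling gave 5 lower. Leaving out libraries 5 and 6 together (chosen after seeing the data) gave 7 higher and 13 lower. With 1 library left out, 5 to 10 were lower. Here and below, counts of alternatives without a share of all genes given above are not read as results about the members. In eosinophils, array weights called 16 higher in place of 0, and turned DNAJC3 from -0.02 to 0.38 on the log2 scale. In lung, array weights called 1 higher and 17 lower in place of 0 and 1. The array weights estimate did not converge in eosinophils and lung, and the cause of its higher counts was not tested. The lung count of 1 lower became 5 in the fit over 12 mouse libraries, 0 with the replicate block (the lung numbers correlated at -0.286, -0.116 and -0.243 and were not taken as pairs) and 0 to 0 when 1 library was left out. The eosinophil replicate block changed no call of a member. Th2 groups share no library number, and no block was fitted there. Whether Th2 libraries of consecutive number are pairs is not labelled. In Th2 cells against lung no count moved by over 1.5 times. Over single members and all alternatives, 470 of the Th2 results kept their side of the threshold. In Th2 cells 27 passed it newly and 29 no longer passed it, and in lung the 3 counts were 513, 21 and 7. A result called in neither fit counted as kept whatever its direction. With 3 libraries a group, and FPKM without read counts, small differences could be missed, above all where the spread within groups was wide, as in eosinophils.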
